A study of Mus musculus with 10 samples.

Results

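The genes described here are 9 integrin subunits of T cells and 1 adhesion partner: Itgae, Itgb7, Itga4, Itgb1, Itgal, Itgb2, Itgav, Itga6, Itga1 and the adhesion ligand Icam1. They were taken by gene name from a count table of 55291 genes, and all 10 were found and passed the filter on low counts that left 20068 genes for testing. The table holds RNA sequencing of regulatory T (Treg) cells, the CD4+ T cells that express Foxp3 and restrain immune responses. All cells came from Foxp3YFP-cre mice, a strain in which a yellow fluorescent protein and Cre recombinase are made under the control of Foxp3, so the controls carry this allele too. LN denotes 4 libraries of Treg cells from the lymph nodes of mice without a tumour, which received no treatment. Hepa1-6 denotes 4 libraries of Treg cells sorted from tumours on day 23 after this mouse hepatoma line was injected under the skin. E.G7 denotes 2 libraries from tumours of E.G7, a mouse T lymphoma line, on day 21. The tumour groups therefore differ from LN in tissue as well as in the presence of a tumour, and from each other in the day of sampling. The labels give no ages and do not state that the replicates are different mice. The p-values therefore set group differences against the variation between these libraries, and that variation could be technical.

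Integrins are cell surface receptors made of an alpha and a beta subunit, and only the assembled pair reaches the membrane and binds its ligand. In lymphocytes they hold cells to vessel walls, to other cells and to the matrix, and signals from the T cell receptor or from chemokines switch them from a resting to a binding state through talin, kindlin and the small GTPase Rap1. Alpha E pairs with beta 7 and binds E-cadherin on epithelia, alpha 4 pairs with beta 7 or beta 1 in homing, and alpha L pairs with beta 2 to form LFA-1, whose main ligand is ICAM-1. Alpha V, alpha 6 and alpha 1 serve contact with matrix: alpha V with several beta subunits, alpha 6 with beta 1 or beta 4 on laminin, and alpha 1 with beta 1 on collagen.

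Promoter sequences of 6 of the 10 genes were in the RefSeq table of GRCm38.p6 (Itgb7, Itga4, Itgb1, Itgav, Itga1 and Icam1). Each has 250 bases before and 50 bases after the start given there. The gene positions given below can start elsewhere: those of Icam1 begin at 21015985, near the end of its window. Sequences of 3 are shown because these genes moved in opposite ways: Icam1 and Itgav rose in both tumours, and Itga4 fell, most in E.G7. A total of 6 motifs were searched on both strands: NF-kB (GGAAATTCC), STAT (TTCNNNGAA), AP-1 (TGANTCA), RUNX (TGTGGT), Sp1 (GGGCGG) and the TATA box (TATAAA). Capitals mark the matches, and each sequence runs 5′ to 3′ on the plus strand.
Icam1, chr9:21015690-21015989: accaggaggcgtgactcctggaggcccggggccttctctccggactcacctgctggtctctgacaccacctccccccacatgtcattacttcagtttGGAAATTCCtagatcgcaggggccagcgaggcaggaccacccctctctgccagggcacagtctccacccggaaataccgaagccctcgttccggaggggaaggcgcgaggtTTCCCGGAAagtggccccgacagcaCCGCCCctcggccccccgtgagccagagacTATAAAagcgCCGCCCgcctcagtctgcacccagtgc
Itgav, chr2:83724147-83724446: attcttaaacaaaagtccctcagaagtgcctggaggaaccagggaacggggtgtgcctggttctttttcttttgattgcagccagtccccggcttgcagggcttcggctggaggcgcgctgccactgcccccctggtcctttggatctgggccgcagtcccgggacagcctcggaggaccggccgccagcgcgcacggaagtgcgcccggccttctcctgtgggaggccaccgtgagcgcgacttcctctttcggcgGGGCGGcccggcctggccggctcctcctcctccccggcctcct
Itga4, chr2:79255176-79255475: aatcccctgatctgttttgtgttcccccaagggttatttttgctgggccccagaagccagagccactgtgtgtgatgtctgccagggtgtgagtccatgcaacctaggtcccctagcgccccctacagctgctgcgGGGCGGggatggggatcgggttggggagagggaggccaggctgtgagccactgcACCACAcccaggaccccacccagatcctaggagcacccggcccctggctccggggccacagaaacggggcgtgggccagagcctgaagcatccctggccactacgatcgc

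The Icam1 window held 1 NF-kB match, whose letters were present in 0.317% of the 32851 promoters in the table, and 1 STAT match (TTCCCGGAA), a pattern found in 8.3% of them. It also held a TATA box match, a motif found in 13.6%, which begins at base 14 after the RefSeq start. There were 2 Sp1 matches on the opposite strand, a motif found in 35.7%. The Itgav window held 1 Sp1 match, and the Itga4 window held 1 Sp1 match and 1 RUNX match on the opposite strand (ACCACA), a motif found in 16.8%. AP-1 letters, found in 7.81%, were in none of the 6 windows. Among the windows not shown, Itgb1 held 1 Sp1 match, and Itgb7 and Itga1 held none of the 6 motifs. The matches describe letters in these windows and are not sites of measured binding. The G and C content was 64.7% for Icam1, 67.3% for Itgav and 64.3% for Itga4, against a median of 52.7% over all promoters.

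Total counts were 22665563 to 24472849 per LN library, 26224286 to 26665325 per Hepa1-6 library, and 26585350 and 26663336 in E.G7. Values below are CPM, read counts scaled to a common library total, with TMM scaling for differences in composition. All 6 Treg markers examined (Foxp3, Il2ra, Ctla4, Ikzf2, Cd4 and Cd3e) were present in every library, and Foxp3, the defining factor of the lineage, averaged 109 ± 10.8 CPM in LN (SD, n = 4), 82.0 ± 11 in Hepa1-6 (n = 4; log2 -0.40 against LN) and 50.2 ± 4.34 in E.G7 (n = 2; log2 -1.11). Of the 6 markers, 1 rose and 4 fell in Hepa1-6, and 1 rose and 5 fell in E.G7. Ctla4, an inhibitory receptor, was the one that rose, 3.44-fold and 3.07-fold, and Il2ra did not pass in Hepa1-6 (log2 0.06, edgeR adjusted p = 0.314). The Foxp3 ranges of LN (94.1 to 119 CPM) and Hepa1-6 (73.8 to 97.3) overlapped. With libraries instead scaled to genes common to T cells, 2 of the 6 rose and 1 fell in Hepa1-6. In E.G7, 1 rose and 4 fell with that scaling, whose genes include Cd4 and Cd3e. Markers of several other cell types were also measured. The summed level of 12 macrophage and neutrophil genes was 25.0 to 36.6 CPM in LN (with S100a9 at 0), 3737 to 4132 in Hepa1-6 and 727 to 759 in E.G7, and 12 of 12 rose in each tumour. For 8 dendritic cell genes the sums were 145 to 166, 8156 to 8611 and 1469 to 1524 CPM in the same order, and for 9 genes of CD8 T and NK cells 29.8 to 33.9 (with Ncr1 at 0), 470 to 502 and 133. The sums of 10 hepatoma genes were 29.9 to 36.6 (Hnf4a and Apob at 0), 3256 to 3355 and 237 to 258 (Fgb at 0). Most of that sum in E.G7 was Apoe (136 and 120 CPM) and Trf (118 and 113). Alb was at most 0.0736 and Krt8 at most 0.149 CPM in E.G7, against at least 356 and 442 in Hepa1-6. Afp was 1.67 and 2.24 CPM in E.G7, below the LN libraries (at least 5.78). Of 9 hepatoma genes tested, 5 rose and 1 fell in E.G7. For 11 stromal and endothelial genes the sums were 223 to 240 (Col3a1, Dcn and Vwf at 0), 1118 to 1209 and 138 to 166. Of those 11 genes, 10 rose and 1 fell in each tumour; the one that fell, Pecam1, was 228 ± 8.35 CPM in LN, 72.6 ± 4.62 in Hepa1-6 and 78.7 ± 12.1 in E.G7, so the E.G7 sum was below that of LN. Sums of 6 B cell genes were 827 to 935, 370 to 440 and 621 to 630 CPM. Those of 7 thymocyte and T lymphoma genes were 20.1 to 21.3 (Rag1 and Rag2 at 0), 192 to 203 (Rag1 at 0) and 219 to 228 (Rag1 and Rag2 at 0). Most of that sum in Hepa1-6 was Cd8a (128 to 135 CPM) and Cd8b1 (61.5 to 72.6), which are also in the CD8 list. In E.G7, Trap1a was 121 and 132 CPM and Dntt 49.8 and 43.4, against at most 0.206 and 2.98 in Hepa1-6. Of 4 tested, 2 rose and 0 fell in Hepa1-6, and 4 rose in E.G7. Several integrin subunits are made by these other cells, and the part of such cells in the results below was not tested.

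In Hepa1-6 against LN, 9 of the 10 genes passed the threshold (adjusted p under 0.05 in edgeR's quasi-likelihood test), 5 higher and 4 lower, where 68% of all genes tested did so, 37% higher and 31.1% lower. In E.G7 against LN, 9 passed, 3 higher and 6 lower, against 59.9% of all genes, 32.7% higher and 27.2% lower. Both comparisons use the same 4 LN libraries. The median log2 fold change of the 10 genes was 0.28 in Hepa1-6 and -0.46 in E.G7, beside 0.04 and 0.01 over all genes tested. Itgav, Itga1 and Icam1 rose in both tumours. Itgal and Itga6 fell in both, as did Itgb7 and Itga4, whose small fall in Hepa1-6 did not hold under every scaling. Itgae fell in E.G7 alone by the threshold, Itgb2 rose in Hepa1-6 and fell in E.G7, and Itgb1 passed in Hepa1-6 alone with a wide spread. For 8 genes the Hepa1-6 and LN libraries had separate ranges, as 61.8% of all genes tested did. For 9 genes the E.G7 and LN libraries had separate ranges, as did 69.2% of all genes.

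**Figure D1:**
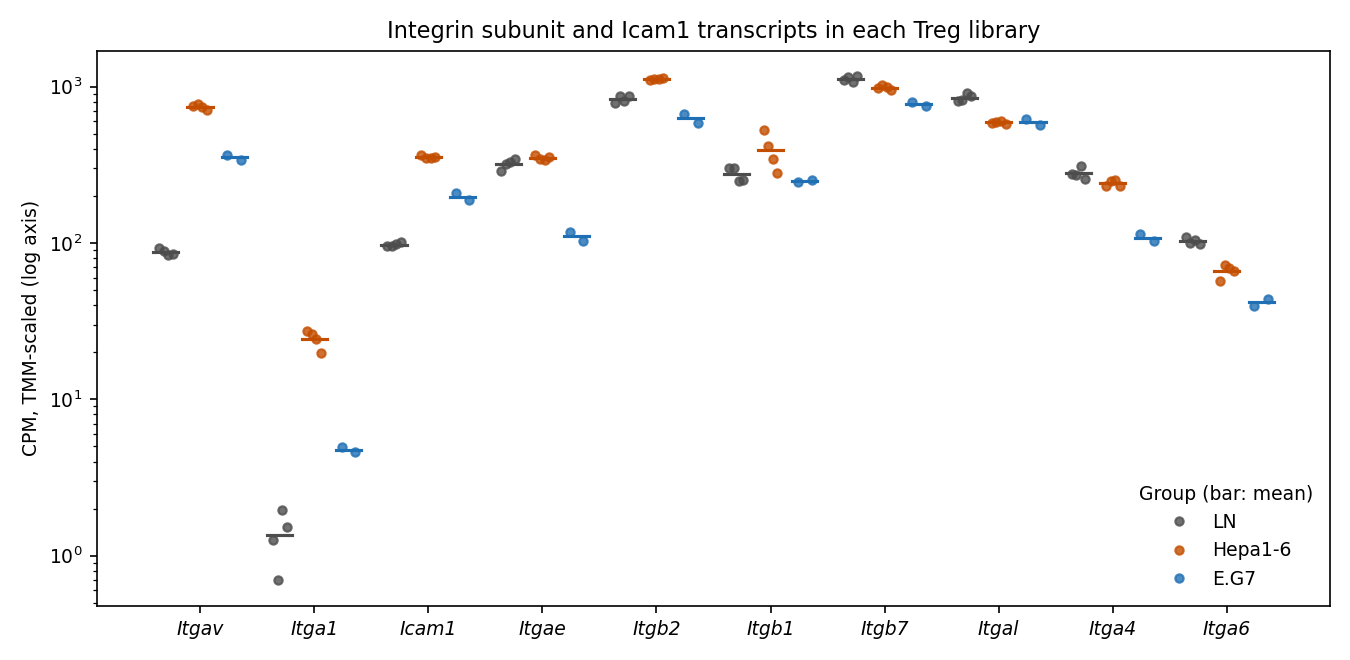
Level of each gene in each library, in TMM-scaled CPM on a log axis, with 1 point per library for LN, Hepa1-6 and E.G7 and a bar at the mean. Itgav sits between 84.1 and 93.0 CPM in LN and between 705 and 773 in Hepa1-6, while the Hepa1-6 points of Itgb1 spread from 279 to 528.

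Among the matrix receptors, Itgav (chr2:83724397-83806916, mm10) rose in both tumours. Its level was 93.0, 88.6, 84.1 and 85.5 CPM in the LN libraries, 749, 773, 743 and 705 in Hepa1-6, and 366 and 340 in E.G7. Every tumour library was above every LN library, and every Hepa1-6 library was above both E.G7 libraries. The mean of 743 ± 28.4 CPM in Hepa1-6 (SD, n = 4) was 8.46-fold that of 87.8 ± 3.97 in LN (n = 4; log2 fold change 3.08, SE 0.0528, edgeR adjusted p = 8.22e-17). In E.G7 the mean of 353 ± 18.5 (n = 2) was 4.02-fold that of LN (log2 2.01, SE 0.0578, edgeR adjusted p = 1.55e-13). In bulk samples such as these, a larger share of cells that make a transcript and more of the transcript per cell cannot be told apart. An exon of Itgav overlaps the predicted gene Gm13684 on the opposite strand, which had 162 to 225 counts in LN, 2600 to 3067 in Hepa1-6 and 1658 to 1726 in E.G7. No source used here says whether counting took strand into account, so reads of this pair may not be separated.

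Itga1 (chr13:114953096-115101964), the alpha chain of the collagen receptor alpha 1 beta 1, was the lowest of the 10 genes and had the largest of their fold changes in Hepa1-6. Its level was 1.27, 0.694, 1.97 and 1.51 CPM in LN, from 32, 18, 49 and 39 counts. It was 27.4, 26.0, 24.2 and 19.6 CPM in Hepa1-6 and 4.94 and 4.60 in E.G7, so the 3 groups did not overlap. Hepa1-6 averaged 24.3 ± 3.36 CPM (SD, n = 4), 17.8-fold the 1.36 ± 0.531 of LN (n = 4; log2 4.16, SE 0.218, edgeR adjusted p = 8.01e-11), and E.G7 averaged 4.77 ± 0.242 (n = 2), 3.51-fold that of LN (log2 1.81, SE 0.260, edgeR adjusted p = 1.93e-05). The LN level rests on few counts, so the size of the change is less certain than that of Itgav.

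Itga6 (chr2:71745616-71858416), the laminin receptor chain, moved the other way. Its level was 109, 99.5, 105 and 98.3 CPM in LN, 57.0, 72.3, 68.9 and 65.7 in Hepa1-6 and 39.5 and 43.9 in E.G7. All tumour libraries were below all LN libraries, with E.G7 the lowest. The mean fell from 103 ± 5.09 in LN (SD, n = 4) to 66.0 ± 6.54 in Hepa1-6 (n = 4; log2 -0.64, SE 0.0747, edgeR adjusted p = 1.34e-06) and to 41.7 ± 3.09 in E.G7 (n = 2; log2 -1.30, SE 0.0973, edgeR adjusted p = 1.13e-08).

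Itgb1 (chr8:128685654-128733200) is the beta chain that alpha 4, alpha 6, alpha 1 and alpha V can share. Its level was 302, 304, 249 and 255 CPM in LN, 528, 415, 346 and 279 in Hepa1-6, and 245 and 253 in E.G7. The lowest Hepa1-6 library lay within the LN range, 1 E.G7 library lay near its low end and the other just below it. The Hepa1-6 mean of 392 ± 106 (SD, n = 4) was higher than the 277 ± 29.6 of LN (n = 4; log2 0.50, SE 0.180, edgeR adjusted p = 0.0356). That call was lost in 7 of the 10 fits that left out 1 library: each LN library (adjusted p from 0.0523 to 0.0963), the second Hepa1-6 library (0.0743) and either E.G7 library (0.0567 and 0.0562). The coefficient of variation of Itgb1 in Hepa1-6 was 27.1%, while the median gene of at least 10 CPM there had 7.24%, and 2.15% of 9643 such genes varied as much or more. E.G7 averaged 249 ± 5.37 (n = 2) and did not pass against LN (log2 -0.16, 95% interval -0.66 to 0.35, edgeR adjusted p = 0.579), and its sign turned when libraries were scaled to pan T cell genes (log2 0.09).

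The beta 7 family comprises Itgae (chr11:73090583-73147446), Itgb7 (chr15:102215995-102231944) and Itga4 (chr2:79255426-79333123). Itgae encodes CD103, which marks many tissue-resident T cells and some Treg cells. Its level was 288, 319, 328 and 345 CPM in LN, 366, 345, 338 and 354 in Hepa1-6, and 118 and 103 in E.G7. The LN and Hepa1-6 libraries overlapped, and both E.G7 libraries were below all others. Hepa1-6 averaged 351 ± 12.1 (SD, n = 4) against 320 ± 23.9 in LN (n = 4), a difference that did not pass (log2 0.13, SE 0.0598, edgeR adjusted p = 0.0599). It passed with RLE scaling (0.0331), when scaled to genes common to T cells (log2 0.33, 0.000108 after adjustment), with DESeq2 (0.0433), and without the fourth LN library (0.0284) or either E.G7 library (0.048 and 0.0483), and its sign turned with upper-quartile scaling (log2 -0.05). In E.G7 the mean was 110 ± 10.4 (n = 2), 2.90-fold lower than in LN (log2 -1.53, SE 0.0794, edgeR adjusted p = 1.43e-10).

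Itgb7, the chain shared by alpha E and alpha 4, was 1094, 1144, 1078 and 1170 CPM in LN, 980, 1017, 1001 and 948 in Hepa1-6, and 800 and 750 in E.G7. The 3 groups did not overlap and stood in that order. Its mean fell from 1121 ± 42.7 (SD, n = 4) to 986 ± 29.9 in Hepa1-6 (n = 4; log2 -0.19, SE 0.0430, edgeR adjusted p = 0.00128) and to 775 ± 35.4 in E.G7 (n = 2; log2 -0.53, SE 0.0539, edgeR adjusted p = 4e-07). The difference in Hepa1-6 turned sign when libraries were scaled to pan T cell genes (0.01 on the log2 scale, adjusted p = 0.864).

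Itga4, the homing chain, was 275, 271, 313 and 257 CPM in LN, 230, 248, 253 and 232 in Hepa1-6, and 114 and 102 in E.G7. The highest Hepa1-6 library was just below the lowest LN library, and the E.G7 libraries were far below both groups. The mean was 279 ± 23.7 in LN (SD, n = 4), 241 ± 11.5 in Hepa1-6 (n = 4; log2 -0.21, SE 0.0628, edgeR adjusted p = 0.0071) and 108 ± 7.95 in E.G7 (n = 2; log2 -1.37, SE 0.0825, edgeR adjusted p = 8.71e-10). Scaled to these pan T cell genes, the Hepa1-6 call was lost (log2 -0.02, 0.788 after adjustment). Itga4 overlaps Cerkl on the opposite strand, which had 34 to 161 counts where Itga4 had at least 2781.

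LFA-1 is built from Itgal (chr7:127296260-127335138) and Itgb2 (chr10:77530252-77565708), and these chains parted in Hepa1-6. Itgal was 807, 827, 904 and 869 CPM in LN, 582, 598, 604 and 575 in Hepa1-6, and 620 and 567 in E.G7. Every tumour library was below every LN library, and the tumour groups overlapped each other. The mean fell from 851 ± 43.3 (SD, n = 4) to 590 ± 13.3 in Hepa1-6 (n = 4; log2 -0.53, SE 0.0472, edgeR adjusted p = 5.79e-08) and to 593 ± 37.4 in E.G7 (n = 2; log2 -0.52, SE 0.0589, edgeR adjusted p = 1.42e-06).

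Itgb2, which also pairs with the myeloid chains Itgam and Itgax, was 782, 864, 805 and 867 CPM in LN, 1107, 1111, 1126 and 1142 in Hepa1-6, and 671 and 588 in E.G7. Hepa1-6 libraries were above, and E.G7 libraries below, all LN libraries. Its mean rose from 829 ± 43.0 (SD, n = 4) to 1121 ± 15.8 in Hepa1-6 (n = 4; log2 0.44, SE 0.0493, edgeR adjusted p = 1e-06) and fell to 629 ± 58.2 in E.G7 (n = 2; log2 -0.40, SE 0.0613, edgeR adjusted p = 3.86e-05). Beside this, Itgax rose from 0.421 ± 0.217 CPM in LN to 87.7 ± 2.10 in Hepa1-6, and Itgam from 0.245 ± 0.173 to 60.6 ± 5.87. In E.G7 they were 6.80 ± 0.151 and 4.98 ± 0.897 CPM. Both genes belong to the marker lists of other cells given above, and their part in the Itgb2 difference was not tested.

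Icam1 (chr9:21015985-21028817), the ligand of LFA-1 and a gene that many activated cells make, was 94.9, 95.9, 98.3 and 101 CPM in LN, 365, 347, 350 and 355 in Hepa1-6, and 207 and 188 in E.G7. The 3 groups did not overlap, with Hepa1-6 highest. Its mean of 354 ± 8.04 in Hepa1-6 (SD, n = 4) was 3.64-fold the 97.5 ± 2.62 of LN (n = 4; log2 1.86, SE 0.0494, edgeR adjusted p = 1.45e-14), and 198 ± 13.6 in E.G7 (n = 2) was 2.03-fold (log2 1.02, SE 0.0572, edgeR adjusted p = 3.72e-10). The ligand thus rose in both groups in which the alpha chain of its receptor fell.

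**Figure D2:**
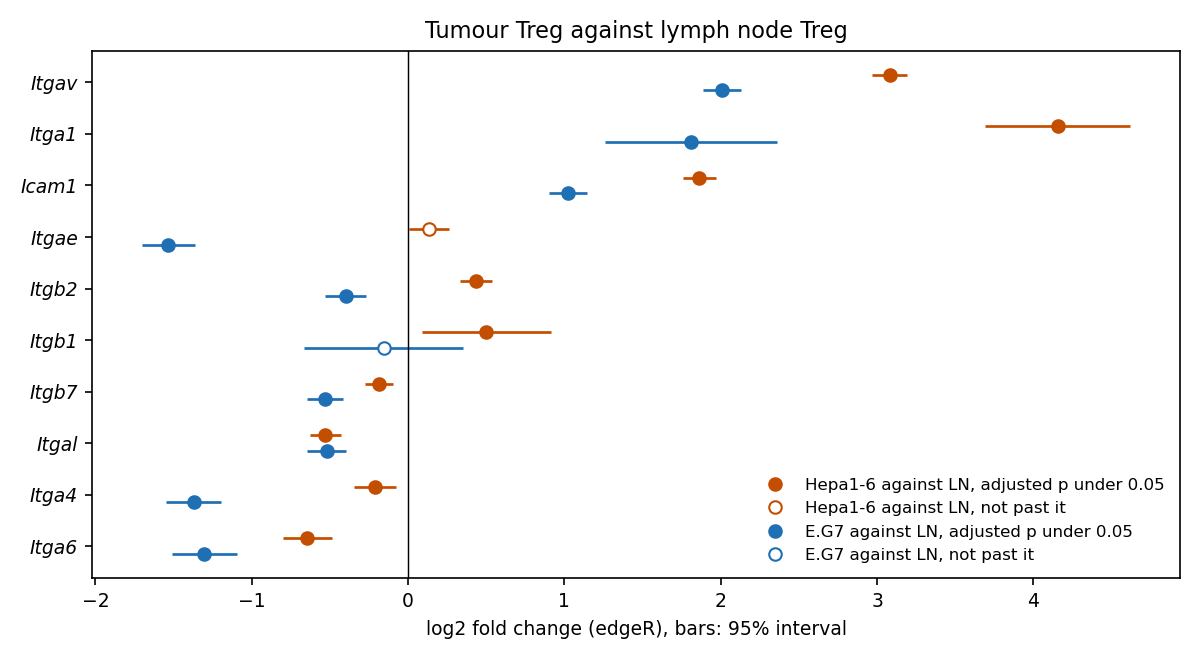
Log2 fold change of each gene in Hepa1-6 and in E.G7 against LN, with 95% intervals from the edgeR fit; filled points passed an adjusted p of 0.05 and open points did not. Itga1 (4.16 and 1.81), Itgav (3.08 and 2.01) and Icam1 (1.86 and 1.02) lie to the right of 0 in both tumours, and Itgae lies near 0 in Hepa1-6 and at -1.53 in E.G7.

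Between the tumours, 9 of the 10 genes were higher in Hepa1-6 than in E.G7 and 0 were lower, where 45.6% of all genes tested were called, 26.1% higher and 19.6% lower. All 9 had separate ranges, as did 58% of all genes. The median difference of the 10 genes was 0.84 on the log2 scale, beside 0.06 over all genes. The difference was 2.35 for Itga1, 1.67 for Itgae, 1.16 for Itga4, 1.07 for Itgav, 0.84 for Icam1 and 0.83 for Itgb2. Itga6 (0.66), Itgb1 (0.66) and Itgb7 (0.35) differed by less. The Itgb1 difference (edgeR adjusted p = 0.0433) was lost without any LN library (adjusted p from 0.0594 to 0.0647), the second Hepa1-6 library (0.0797) or either E.G7 library (0.192 and 0.167). Itgal showed no difference past the threshold (log2 -0.01, 95% interval -0.13 to 0.11, edgeR adjusted p = 0.922). These tumour groups differ in tumour line, in day and in number of libraries.

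Levels of different genes were set beside each other per kilobase of the deposited gene length, and on that scale the order changed between groups. That length need not equal the length of the transcripts present in these libraries. In LN the highest was Itgb7 (405 ± 15.4 CPM per kilobase), then Itgb2 (272 ± 14.1), Itgal (130 ± 6.59), Itgae (69.8 ± 5.21) and Itgb1 (68.0 ± 7.26), and the libraries of the last pair overlapped. Icam1 (22.4 ± 0.600) and Itga4 (19.96 ± 1.70), which also overlapped, came next, then Itga6 (11.3 ± 0.557), Itgav (8.17 ± 0.369) and Itga1 (0.0732 ± 0.0286). In Hepa1-6, Itgb2 (367 ± 5.19) and Itgb7 (356 ± 10.8) overlapped. Itgb1 (96.1 ± 26.0), Itgal (89.8 ± 2.02), Icam1 (81.3 ± 1.84), Itgae (76.6 ± 2.64) and Itgav (69.1 ± 2.64) followed, and Itga4 (17.2 ± 0.822), Itga6 (7.22 ± 0.715) and Itga1 (1.31 ± 0.181) were lowest. The Hepa1-6 libraries of Itgb1 overlapped those of each of the next 4 genes, and those of Icam1 and Itgae overlapped too. In E.G7 the order was Itgb7 (280 ± 12.8), Itgb2 (206 ± 19.1), Itgal (90.3 ± 5.69), Itgb1 (61.0 ± 1.32), Icam1 (45.4 ± 3.11), Itgav (32.8 ± 1.72), Itgae (24.1 ± 2.26), Itga4 (7.72 ± 0.569), Itga6 (4.56 ± 0.338) and Itga1 (0.257 ± 0.0130), with no overlap between neighbours. Itgav thus moved from the ninth place in LN to the seventh in Hepa1-6 and the sixth in E.G7.

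Each chain was also expressed as its share of all counts per kilobase over the 18 alpha or 8 beta subunits in the same library. Itgal made up 52.8% of the alpha total in LN and 53.3% in E.G7 but 26.7% in Hepa1-6. Itgae made up 28.5%, 14.2% and 22.8% in LN, E.G7 and Hepa1-6, and Itgav 3.34%, 19.4% and 20.6%. Itga4 was at 8.14%, 4.56% and 5.12%, Itga6 at 4.61%, 2.71% and 2.15%, and Itga1 at 0.0296%, 0.151% and 0.388%. The 6 alpha chains studied here summed to 97.2 to 97.5% of the alpha total in LN, 94.2 to 94.5% in E.G7 and 77.2 to 78.6% in Hepa1-6. In Hepa1-6 the rest was led by Itga3 (7.92%), Itgax (5.44%), Itgam (3.59%) and Itga5 (3.35%). The beta total was held mostly by Itgb7 (53.4% in LN, 41.5% in Hepa1-6, 49.7% in E.G7) and Itgb2 (35.8%, 42.9% and 36.6%), with Itgb1 at 8.96%, 11.1% and 10.9%.

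**Figure D3:**
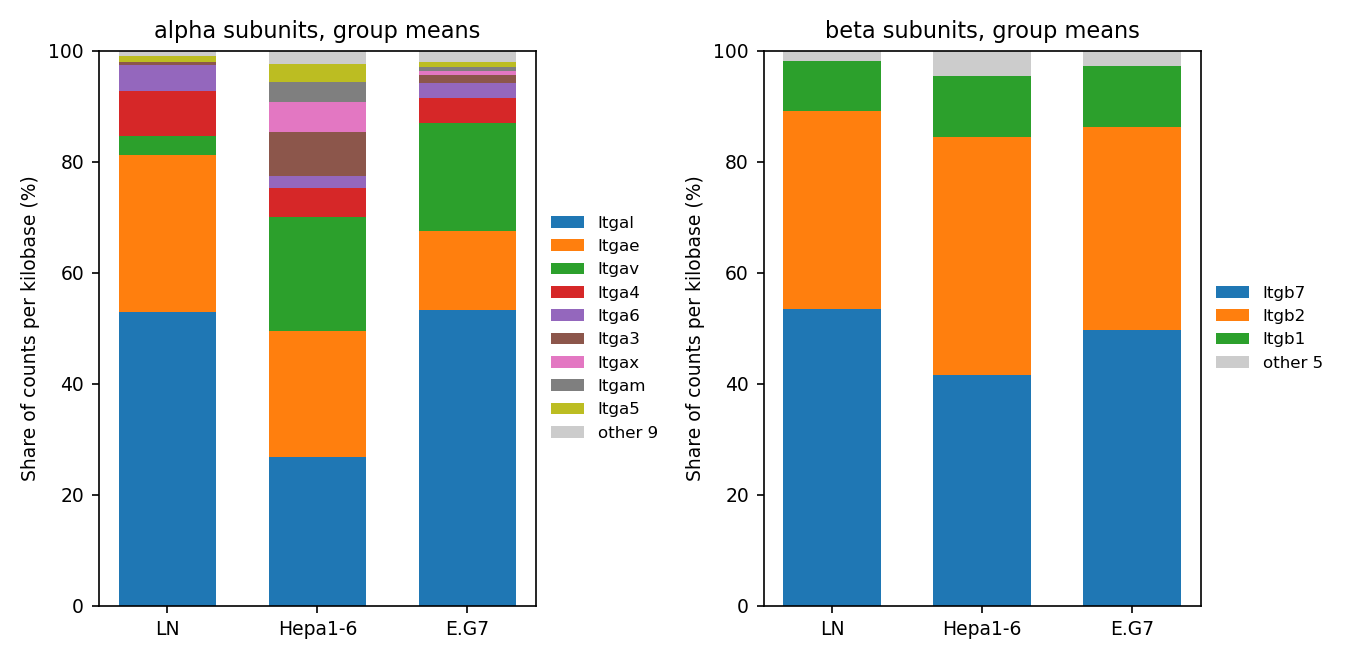
Share of each subunit in the summed counts per kilobase of all alpha subunits and of all beta subunits, in percent, as stacked bars of the group means. Itgal falls from 52.8% in LN to 26.7% in Hepa1-6, and Itgav stands at 3.34% in LN, 20.6% in Hepa1-6 and 19.4% in E.G7.

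Ratios of partner chains within a library do not depend on how libraries are scaled, and 8 were compared between the 3 groups with exact 2-sided permutation tests, 24 in all. The Itgal to Itgb2 ratio was 0.444 to 0.522 in LN, 0.234 to 0.250 in Hepa1-6 and 0.429 to 0.448 in E.G7, so LN and Hepa1-6 did not overlap (log2 difference -0.97). Itgae to Itgb7 was 0.159 to 0.184 in LN, 0.205 to 0.226 in Hepa1-6 and 0.0831 to 0.0890 in E.G7, higher than LN in 4 of 4 Hepa1-6 libraries and lower in 2 of 2 E.G7 libraries. Itgav to Itgb1 was 0.111 to 0.128 in LN, 0.538 to 0.958 in Hepa1-6 and 0.511 to 0.567 in E.G7. Itga4 to Itgb7 overlapped between LN (0.0436 to 0.0575) and Hepa1-6 (0.0465 to 0.0501) and was lower in E.G7 (0.0270 to 0.0281). Itga1 to Itgb1 was 0.000501 to 0.00173 in LN, 0.0114 to 0.0154 in Hepa1-6 and 0.00399 to 0.00442 in E.G7. Itga6 to Itgb1 was 0.146 to 0.188 in LN and lower in both tumours, at 0.0482 to 0.105 and 0.0720 to 0.0775. Itga4 to Itgb1 was likewise lower, at 0.261 to 0.366, 0.127 to 0.242 and 0.118 to 0.135 in LN, Hepa1-6 and E.G7. Itgae to Itga4 was 3.19 to 4.09 in LN, 4.09 to 4.86 in Hepa1-6 and 3.07 to 3.16 in E.G7.

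In Hepa1-6 against LN, 6 of the 8 ratios reached 0.0286, the smallest p that an exact permutation test of 4 against 4 can give. The exceptions were Itga4 to Itgb7 (exact p = 0.8) and Itgae to Itga4 (exact p = 0.0571). In E.G7 against LN, 6 ratios reached 0.0667, the smallest that an exact test of 4 against 2 can give, and Itgal to Itgb2 (exact p = 0.267) and Itgae to Itga4 (exact p = 0.133) did not. After Benjamini-Hochberg adjustment over the 24 exact tests the lowest value was 0.0889, and 0 ratios passed. With the smallest p-values given above, no ratio could have come under 0.05 after this adjustment, so it does not decide whether ratios differ. At an unadjusted exact p under 0.05 the count was 6 in Hepa1-6 against LN and 0 in the comparisons with the 2 E.G7 libraries, which cannot reach it.

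**Figure D4:**
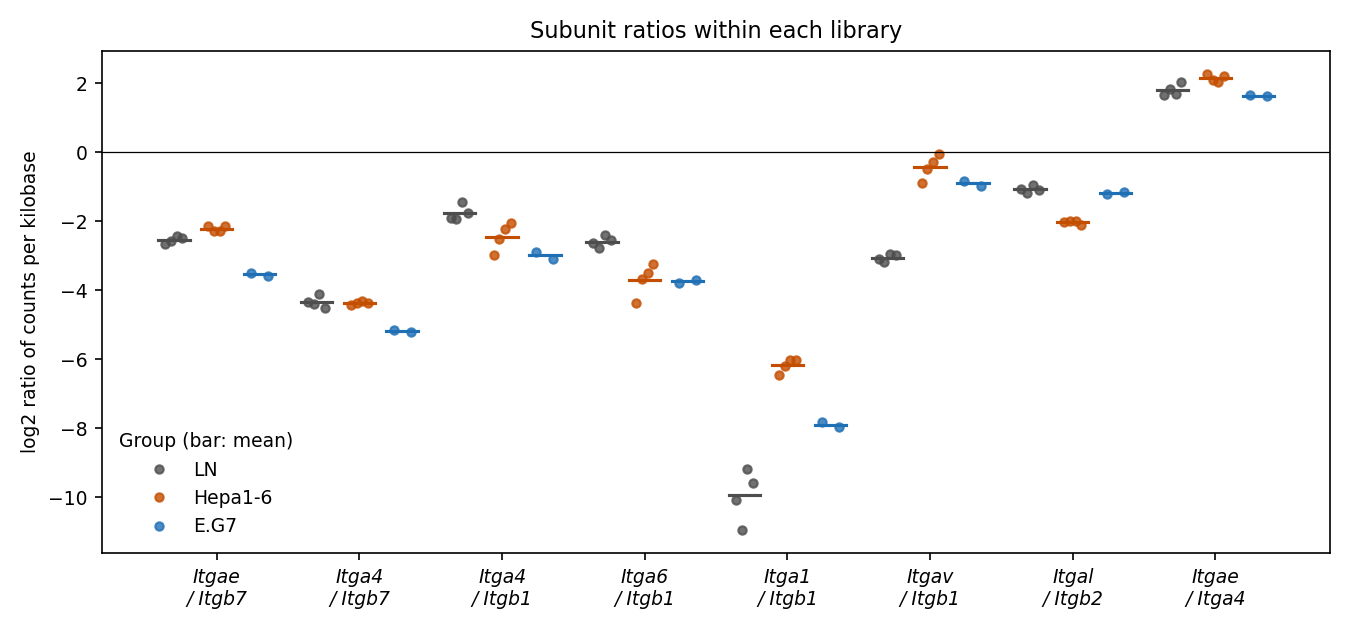
Log2 ratio of partner subunits in counts per kilobase of deposited gene length, with 1 point per library for LN, Hepa1-6 and E.G7. Bars mark the mean, and a line at 0 marks where the chains are equal on this scale. The Itgal to Itgb2 points are lower in Hepa1-6 than in LN by 0.97 on average, and those of Itgav to Itgb1 are lowest in LN.

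Other integrin chains and the ligands were examined as lists. Of 12 other alpha chains, 9 rose and 1 fell in Hepa1-6 (median log2 2.36) and 5 rose and 1 fell in E.G7 (median 0.54). Itgax and Itgam had the smallest adjusted p in both, at 205-fold and 242-fold in Hepa1-6 and 15.9-fold and 19.9-fold in E.G7. Of 5 other beta chains, all 5 rose in Hepa1-6 and 2 in E.G7 (medians 5.03 and 0.34). Itgb4, the second partner of alpha 6, rose from 0.904 ± 0.250 CPM (SD, n = 4) to 82.9 ± 5.04 in Hepa1-6 (n = 4, 91.3-fold, edgeR adjusted p = 4.52e-15). In E.G7 Itgb4 was 1.15 ± 0.426 (n = 2, edgeR adjusted p = 0.284). Itgb8, a partner of alpha V that serves the activation of latent TGF-beta, rose from 63.2 ± 4.46 to 133 ± 7.63 in Hepa1-6 (n = 4 each; 2.10-fold, edgeR adjusted p = 8.43e-10) and was 55.2 ± 4.69 in E.G7 (n = 2; edgeR adjusted p = 0.0571). Itgb3 and Itgb5, further partners of alpha V, led the rise in E.G7, at 1.24-fold and 8.83-fold. Both rose by more in Hepa1-6, at 1.47-fold and 32.6-fold.

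Ligands of these integrins were higher in the tumour libraries. Of 14 tested, 13 rose and 1 fell in Hepa1-6 (median log2 6.14), and 11 rose and 1 fell in E.G7 (median 3.16). Vtn was too low to test. Spp1, which encodes osteopontin, rose from 0.589 ± 0.166 CPM in LN (SD, n = 4) to 313 ± 6.06 in Hepa1-6 (n = 4; 528-fold) and 87.3 ± 15.7 in E.G7 (n = 2; 147-fold). Fn1, which encodes fibronectin, a ligand of alpha 4 beta 1 and alpha V chains, was 0.354 ± 0.0783 CPM in LN (n = 4). It was 878 ± 45.1 in Hepa1-6 (n = 4), 2450-fold higher, and 31.7 ± 9.18 in E.G7 (n = 2), 88.6-fold higher. Lamc1, a laminin chain, was 9.57-fold higher in Hepa1-6 and 4.98-fold higher in E.G7. Such matrix genes are typically made by stromal, myeloid or tumour cells, whose marker lists are given above; their part in these values was not tested.

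More activators of integrins fell than rose. Of 15 activators, 2 rose and 10 fell in Hepa1-6 (median log2 -0.34) and 2 rose and 11 fell in E.G7 (median -0.51). With pan T cell scaling 5 rose and 7 fell in Hepa1-6, and 3 rose and 9 fell in E.G7. Rasgrp2, an exchange factor that loads Rap1, was 153 ± 8.15 CPM in LN (SD, n = 4) and 35.5 ± 3.20 in Hepa1-6 (n = 4; log2 -2.10, SE 0.0715, edgeR adjusted p = 3.24e-13). In E.G7 Rasgrp2 was 64.1 ± 1.56 CPM (n = 2, log2 -1.25). Skap1, an adaptor that links the T cell receptor to Rap1, fell by 1.22 in Hepa1-6 and by 0.89 in E.G7 on the log2 scale. Apbb1ip, which encodes the Rap1 effector RIAM, fell by 1.47 in Hepa1-6 and by 1.85 in E.G7 on that scale. The 2 activators that rose in both tumours were Rap1a (log2 0.28 and 0.26) and Rap1b (1.21 and 0.85), the GTPases themselves. Rap1a, Rap1b, Tln1 and Fermt3 are named after their values were seen. Tln1, which encodes talin 1, gave log2 0.14 in Hepa1-6 (edgeR adjusted p = 0.0834) and -0.51 in E.G7, and Fermt3, which encodes kindlin-3, gave -0.04 (edgeR adjusted p = 0.458) and -0.28.

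**Figure D5:**
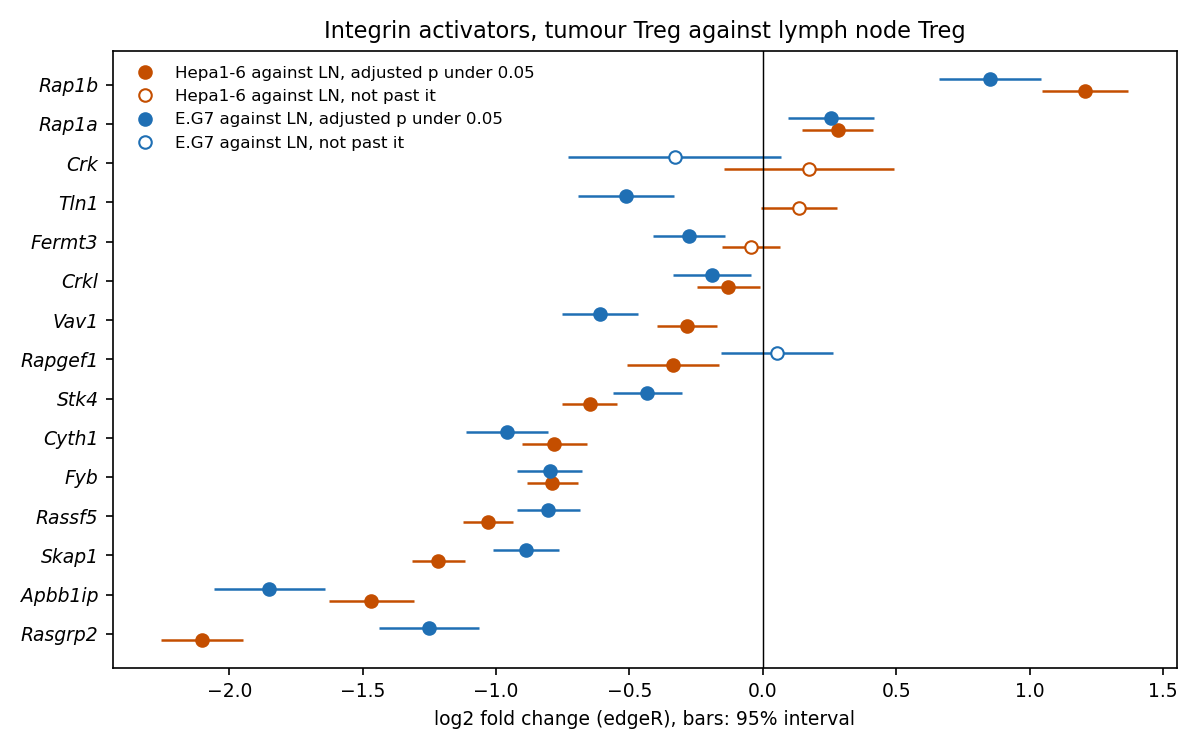
Log2 fold changes of the integrin activators in Hepa1-6 and in E.G7 against LN with 95% intervals from the edgeR fit; filled points passed an adjusted p of 0.05 and open points did not. In Hepa1-6 and E.G7, Rasgrp2 lies at -2.10 and -1.25, Apbb1ip at -1.47 and -1.85, and Rap1b to the right of 0 (1.21 and 0.85).

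Of 6 inhibitors of integrin activation, 2 rose and 1 fell in Hepa1-6 and 1 rose and 3 fell in E.G7, with medians of 0.02 and -0.16; with upper-quartile scaling 2 rose and 3 fell in Hepa1-6, and with pan T cell scaling 1 rose and 1 fell in E.G7. Flna, which encodes filamin A and competes with talin for beta tails, rose in Hepa1-6 (log2 0.36) and fell in E.G7 (-0.41), and Sipa1, which switches Rap1 off, fell in both (-0.38 and -0.67). Of 16 adaptors and kinases, 10 rose and 4 fell in Hepa1-6, and 5 rose and 5 fell in E.G7, which became 8 and 5 with pan T cell scaling. Actn1, which encodes the actin cross-linker alpha-actinin 1, fell in both (-2.42 and -1.80), and Zyx, which encodes the focal adhesion protein zyxin, rose in Hepa1-6 (log2 1.31). Parvb, a parvin that joins the integrin-linked kinase complex, had 0 counts in LN. It was 4.01 ± 0.731 CPM in E.G7 (SD, n = 2), at least 136-fold higher than a floor of 3 counts over the LN group. In Hepa1-6 it was 3.06 ± 0.246 CPM (n = 4), at least 104-fold above the same floor.

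Of 13 other adhesion receptors, 5 rose and 7 fell in Hepa1-6, and 2 rose and 10 fell in E.G7; in Hepa1-6 the split became 6 and 5 with pan T cell scaling. Cd96, a receptor for CD155, fell in both tumours (log2 -2.05 and -1.50), and Epcam, an epithelial adhesion molecule, rose 9.69-fold in Hepa1-6. Of 12 genes of tissue residency, 10 rose and 0 fell in Hepa1-6, and 9 rose and 2 fell in E.G7. The transcription factor Bhlhe40 rose 24.2-fold and 23.1-fold, and Rgs2 6.38-fold and 5.90-fold. Of 6 recirculation genes, 6 fell in Hepa1-6, and 4 fell and 1 rose in E.G7. On the log2 scale S1pr1, the receptor that guides exit from lymph nodes, fell by 2.19 in Hepa1-6 and by 1.53 in E.G7. Klf3 fell by 1.40 in Hepa1-6 and by 2.42 in E.G7. Tcf7 fell by 2.91 in Hepa1-6 and was the one that rose in E.G7 (log2 0.67).

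The genes whose pattern over the 10 libraries was most like that of Itgae, Itga1 and Icam1 were found by Euclidean distance between centred log2 CPM profiles, among 9069 genes with a mean of at least 10 CPM over all libraries. Nearest to Itgae were Ctsw (0.31), Prkd3 (0.37), Iigp1 (0.38), Chst15 (0.42) and Golm1 (0.44). Nearest to Icam1 were Syngr2, Pgm1 and Socs3 (0.24 each), then Plscr1 and Neb (0.30 each). Nearest to Itga1, at a larger distance, were Lair1 (1.03), Dnase1l3 (1.04), Marcks (1.04), Slc35f5 (1.11) and Cfp (1.11). These neighbours of Itga1 averaged 1.12 to 8.75 CPM in LN and 23.4 to 121 in Hepa1-6, so they passed that minimum through their Hepa1-6 level. Itga1 had fewer counts than Itgae and Icam1.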

How the data were processed

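RNA of 10 libraries of sorted mouse Treg cells (LN 4, Hepa1-6 4, E.G7 2) was measured by sequencing on the BGISEQ-500 after TRIzol extraction and library construction at BGI Genomics, per the labels' protocols. The authors deposited whole-number read counts per gene with exon positions and gene lengths, per the file headers, and FPKM values per library for 12930 genes. The submitters' processing notes name HISAT2, featureCounts, Subread, RSEM, DESeq2 and the mm10 build, with no version or role; strand setting and annotation: not given in the sources used here. Exon overlaps and gene positions come from the exon positions in the count table, and the starts and ends of the 10 genes equal those of GENCODE vM21. Promoters come from RefSeq GRCm38.p6.

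Counts were tested in R 4.3.3 with edgeR 4.0.16: filterByExpr (20068 genes), TMM scaling and 1 robust quasi-likelihood fit to all 10 libraries with a term per group. Benjamini-Hochberg adjusted p under 0.05 over all genes was the threshold, and the biological coefficient of variation was 13%. SE was taken as log2 fold change over the root of F. The 95% interval built from it is for the difference of group means, and its width reflects the spread between libraries. Replicate pairs differed by 7.41 to 18.9 chi-square per degree of freedom, so none was a repeat deposit. The fit was tested on simulated data. Alternatives were RLE, upper-quartile and pan T cell scaling, no filter, DESeq2 1.42.0, a test against a fold of 1.5, a replicate block, fits of the compared groups alone, limma 3.58.1 on log2(FPKM + 1) with and without a filter and on log2(FPKM + 0.1), and leaving out each library.

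The genes, lists, tests and alternatives were chosen with earlier results of these data known. All 10 genes were named, with the 2 genes of smallest adjusted p of each other list in each comparison with LN, and the 5 nearest profiles of Itgae, Itga1 and Icam1, leaving out predicted genes. A result that this rule takes is not reported here. Of the 15 pan T cell genes, 14 were tested, and 3 rose and 9 fell in Hepa1-6 and 1 rose and 8 fell in E.G7; Lck fell in both (log2 -0.69 and -0.66).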

Additional observations from a re-analysis of the deposited data

Results flagged for a closer look

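The effect of the tumour against LN differed between Hepa1-6 and E.G7 for 9 of the 10 genes, where 45.6% of all genes tested were called. As both effects are taken from the same LN libraries, this difference equals the direct comparison of Hepa1-6 with E.G7 in the edgeR fit. The log2 difference was 2.35 for Itga1 (edgeR adjusted p = 1.06e-06), 1.67 for Itgae (1.18e-10), 1.16 for Itga4 (1.1e-08), 1.07 for Itgav (1.07e-09) and 0.84 for Icam1 (1.33e-08). It was 0.83 for Itgb2 (2.19e-08), 0.66 for Itga6 (2.93e-05), 0.66 for Itgb1 (0.0433) and 0.35 for Itgb7 (5.62e-05). The Itgb1 call was lost under 12 alternatives. Among them were upper-quartile scaling (edgeR adjusted p = 0.054), pan T cell scaling (0.0501), no filter (0.126) and only the groups compared (0.161). For all 9 genes each of the 4 Hepa1-6 libraries lay above both E.G7 libraries, and 58% of all genes tested had separate ranges. Itgb2 was the gene that rose in one tumour and fell in the other. No LN or Hepa1-6 library stood apart from its group for any of the 10 genes by Dixon's criterion, over 20 groups screened, where chance alone gives about 5% of groups.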

How the results depend on the processing

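Of the 630 values of the 10 genes under the alternatives, 584 kept their direction and their side of the threshold, 34 lost the call and 7 gained it. A further 5 turned sign, all to values that did not pass: Itgb7, which lost its call in Hepa1-6 against LN, and 4 values not called before (Itgae in Hepa1-6 against LN, Itgb1 in E.G7 against LN, and Itgal in Hepa1-6 against E.G7 under 2 alternatives). Depth limits Itga1 most, the gene with the fewest counts; the pseudocount of the log2(FPKM + 1) scale shrank its difference in Hepa1-6 to 1.10. Itgb7 in Hepa1-6 against LN turned to log2 0.0080 with pan T cell scaling; this scaling moved the median of all genes by 0.19 in Hepa1-6 and 0.24 in E.G7, and the percentage of calls in the higher direction from 54.3% to 65.2% and from 54.6% to 67.5%; the upper quartile moved the medians by -0.18 and -0.12. The test against a fold of 1.5 called 8141, 7020 and 4206 genes in Hepa1-6 against LN, E.G7 against LN and Hepa1-6 against E.G7, in place of 13656, 12013 and 9153, and 3 of the 10 genes in Hepa1-6 against LN, all higher. Limma on log2(FPKM + 1) called 8830 genes and on log2(FPKM + 0.1) 8732 in Hepa1-6 against LN, of 11324 tested. Without 1 library, genes called ranged from 13000 to 13856, from 9743 to 12280 and from 6969 to 9225, and the 10 genes called from 8 to 9, 9 to 9 and 8 to 9. Itgb1 lost its calls in Hepa1-6 against LN with upper-quartile scaling (adjusted p = 0.131), no filter (0.0898) and only the groups compared (0.0529). Same-numbered libraries did not deviate together (correlations -0.049 to 0.029 over 8 pairs), but so few pairs do not decide whether the numbers pair them. The 2 E.G7 libraries, centred on their own mean, mirror each other and so add little. With a replicate block 9, 10 and 9 of the 10 genes were called, and 13390, 11099 and 8369 of all genes. Itgb1 in E.G7 against LN was the call added (log2 -0.37, edgeR adjusted p = 0.0191). The cause of these changes was not tested.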
